A study of Homo sapiens with 6 samples.

Results

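The genes described here are the chaperones of the cytosol and the mitochondrion, 58 named genes in 10 role classes, matched by symbol to the probe annotation of the array. 53 of the 58 were measured by a probe set of their own, out of 18417 genes measured in all. The mRNA came from MDA-MB-231, a human triple negative breast cancer cell line, on Affymetrix Human Gene ST arrays, with 3 samples that received 500 nM EC-70124, a multi-kinase inhibitor, for 24 h and 3 control samples. The methods call the samples independent, and no source used here says what the control cells received in place of the drug. The values are intensities on a linear scale, as the authors normalized them, so that a value of 1 probe set can be set against the same probe set on another array but not against another gene.

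Chaperones bind unfolded or partly folded protein and help it to fold, to stay soluble or to be passed on for breakdown. The HSP70 proteins do so in a cycle of ATP use that J-domain proteins start and that nucleotide exchange factors such as the BAG and HSP110 proteins complete, HSP90 takes over many signalling proteins at a later stage, including a large number of kinases, and the TRiC ring folds actin and tubulin. When unfolded protein builds up, heat shock factor HSF1 switches on a defined set of these genes, while other members of the same families are expressed without heat and do not depend on it.

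The arrays of 1 group correlated with each other at r between 0.990 and 0.993 over all probe sets, and those of different groups at r between 0.979 and 0.984. The estrogen receptor gene ESR1 (183 to 233 with EC-70124, 217 to 229.6 in control cells) and the progesterone receptor gene PGR (149 to 163 with EC-70124, 151 to 176 in control cells) are markers that triple negative lines lack, and VIM, the vimentin gene of mesenchymal cells (12837 to 13305 with EC-70124, 13703 to 13991 in control cells), is one that this line expresses. None of the 3 passed the test (adjusted p of 0.359, 0.506 and 0.328), and levels were not compared between them. Other listed markers did pass. CDH1, listed as low in such lines, was higher (log2 fold change 0.19, adjusted p = 0.049). CD44 (-0.29, adjusted p = 0.0049), AXL (-0.27, adjusted p = 0.00508) and TGFBI (-0.75, adjusted p = 0.000145), listed as high in this line, were lower. ERBB2, EPCAM and CAV1 did not pass. ERBB2, which the line does not amplify, read 1484 to 1566 with EC-70124 and 1442 to 1556 in control cells. Because the values are per amount of RNA from a whole culture, fewer cells that express a gene and less of its RNA per cell cannot be told apart.

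After 24 h of EC-70124, 13 of the 53 measured chaperone genes were higher and 8 were lower at an adjusted p under 0.05 (limma, Benjamini-Hochberg over all genes), and 32 did not pass. That is 39.6% of the members called, beside 34.5% of all genes. The higher calls made up 24.5% of the members, against 19.7% of all genes, and the lower calls 15.1%, against 14.8%. The median log2 fold change of the members was 0.01 and that of all genes was -0.00, with member values between -0.45 and 1.48. For 32 of the 53 members the EC-70124 arrays did not overlap the control arrays, where 47.6% of all genes showed no overlap. 5 members were called with a fold change of at least 1.5, all of them higher with EC-70124: HSPB8, DNAJC2, BAG1, DNAJC7 and DNAJB12. That threshold was passed by 9.66% of all genes. Both directions occurred within the HSP70, HSP90, mitochondrial, J-domain and BAG classes, as the plot of fold changes by role shows.

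**Figure D1:**
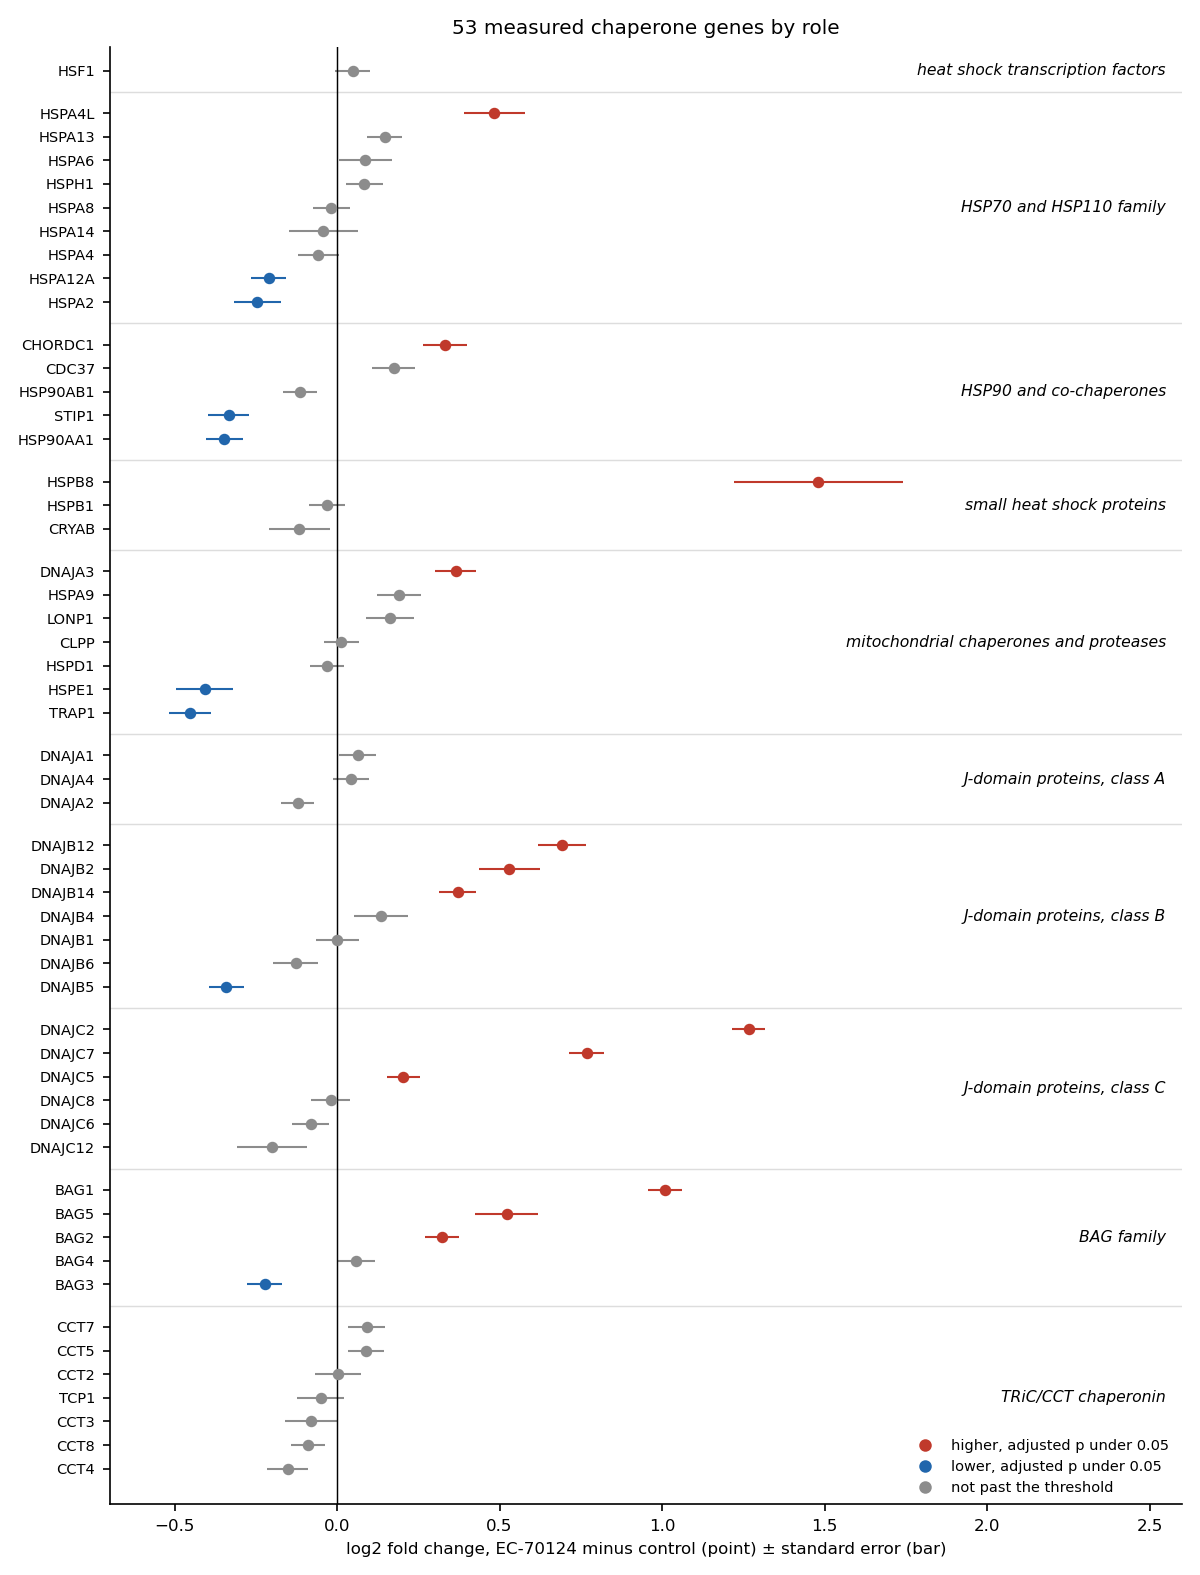
Log2 fold change (EC-70124 minus control, x axis) with its standard error for each of the 53 measured chaperone genes, grouped by role from HSF1 at the top to TRiC at the bottom. Red points were higher and blue points lower at an adjusted p under 0.05, and grey points did not pass. The 7 TRiC subunits among the members all lie between -0.15 and 0.09.

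The genes that HSF1 switches on by heat were looked at first. HSF1 itself read 3355, 3374 and 3409 with EC-70124 and 3135, 3352 and 3319.9 in control cells. The groups did not overlap, but the lowest EC-70124 array lay only just above the highest control array, and the log2 fold change of 0.05 (SE 0.05) did not pass the test (adjusted p = 0.547). HSPA6, an HSP70 gene known for its strong induction by heat, read 2951, 2781 and 2754 with EC-70124 and 2668, 2946 and 2400.2 in control cells. These groups overlapped, and the log2 fold change was 0.09 (SE 0.08, adjusted p = 0.468). A further probe set that HSPA6 shares with HSPA7 read 951, 1053 and 990 with EC-70124 and 764, 682 and 879 in control cells, with no overlap and a log2 fold change of 0.37 (adjusted p = 0.0452 over all probe sets). Its signal cannot be assigned to either gene.

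HSPA1A and HSPA1B, the main inducible HSP70 genes, encode almost the same protein and are read here only through 5 probe sets that name both, of which 4 hold distinct values. Their intensities lay between 5637 and 6889 with EC-70124 and between 5767 and 6813 in control cells. The ranges overlapped almost fully, and the log2 fold changes lay between -0.04 and -0.02 (adjusted p between 0.746 and 0.881 over all probe sets). DNAJB1, the J-domain partner induced together with HSP70, read 3479.9, 3562 and 3859 with EC-70124 and 3618, 3826 and 3453 in control cells. The groups overlapped and the log2 fold change was 0.00 (SE 0.07, adjusted p = 0.998).

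Of 20 members listed here as heat-inducible targets of HSF1, 17 had a probe set of their own. The list includes HSPA8 and HSP90AB1, described below as constitutive, and neither passed. Of the 17, 2 were higher (HSPA4L and CHORDC1) and 4 lower (HSP90AA1, STIP1, HSPE1 and BAG3). Their median log2 fold change was -0.02 and their values lay between -0.41 and 0.48. The share called was 35.3%, beside 34.5% of all genes, and none reached a fold change of 1.5. Of the 36 measured members outside this list, 11 were higher (30.6%, beside 19.7% of all genes) and 4 lower (11.1%, beside 14.8%), with a median of 0.05. The 5 members called with a fold change of at least 1.5 were among these 36, where 9.66% of all genes passed that threshold. Whether the listed and the other members differed was not tested.

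The heat shock element that HSF1 binds is built of GAA units in alternating direction with 2 bases between them, and this design can be read in the promoter windows themselves. RefSeq windows (GRCh38.p14, 250 bases before to 50 after each annotated start) were searched for GAANNTTC and TTCNNGAA, each of which is its own reverse complement, so that both strands are covered, and for runs of 3 such units, in which the 2 shorter motifs overlap. 52 of the 58 members had a window. A run of 3 units was found in 8 of the 52 (15.4%), and in 0.608% of 27305 symbols with a promoter window. A match of at least 2 units was found in 23 of the 52 (44.2%), and in 16.2% of all symbols. Among the heat-inducible members 15 of 19 held at least 2 units (78.9%) and 7 held a run of 3 (36.8%), and among the other members 8 of 33 (24.2%) and 1 did. A match says only that these letters stand in the window. The stretches below come from 7 members with a run of 3 units upstream of the start, shown because 1 was called higher, 1 lower and 5 not at all, and from HSPB8, the member with the largest log2 fold change, whose window holds 2 separate matches of 2 units, 1 of them before the start. Matches elsewhere in these windows are not shown. They are written 5′ to 3′ along the gene's own strand, with the matched letters in capitals.
HSPA6, chr1:161524446-161524498, plus strand: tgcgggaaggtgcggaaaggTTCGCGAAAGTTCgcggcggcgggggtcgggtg
HSPA8, chr11:123062159-123062386, minus strand: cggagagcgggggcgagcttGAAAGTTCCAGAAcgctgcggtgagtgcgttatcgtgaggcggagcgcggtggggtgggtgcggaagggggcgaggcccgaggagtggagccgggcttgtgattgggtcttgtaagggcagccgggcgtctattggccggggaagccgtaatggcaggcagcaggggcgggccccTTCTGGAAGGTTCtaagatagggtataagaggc
HSP90AA1, chr14:102087104-102087133, minus strand: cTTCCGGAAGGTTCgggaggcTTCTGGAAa
HSP90AB1, chr6:44247770-44247798, plus strand: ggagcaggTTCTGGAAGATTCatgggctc
CHORDC1, chr11:90223065-90223129, minus strand: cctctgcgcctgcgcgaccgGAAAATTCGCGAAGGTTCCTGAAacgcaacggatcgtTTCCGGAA
DNAJB6, chr7:157336853-157336905, plus strand: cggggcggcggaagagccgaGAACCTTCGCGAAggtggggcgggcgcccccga
HSPD1, chr2:197500062-197500090, minus strand: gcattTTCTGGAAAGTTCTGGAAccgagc
HSPB8, chr12:119178823-119178870, plus strand: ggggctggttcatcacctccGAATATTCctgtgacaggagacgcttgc

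The 8 measured members with a run of 3 units were 1 higher (CHORDC1), 1 lower (HSP90AA1) and 6 that did not pass (DNAJA1, DNAJB6, HSP90AB1, HSPA6, HSPA8 and HSPD1). Their median log2 fold change was -0.02, with values between -0.35 and 0.33. In DNAJA1 the run lies just after the start, and its sequence is not shown. Of the 13 measured members with 2 units and no longer run, 3 were higher and 1 was lower, with a median of 0.00. Of the 27 with no match in the windows, 9 were higher and 6 lower, with a median of 0.09. A missing match does not show that an element is absent, in the window or beyond it. HSPE1, BAG3 and HSPH1, all in the heat-inducible list, had no match in their windows. The run printed for HSPD1 lies between the HSPD1 start it was counted from and the HSPE1 start. It stands just outside the HSPE1 window, which begins at chr2:197500129, so HSPE1 is counted with no match. Whether HSF1 acts on HSPE1 through this run was not tested. Over all genes 19.7% were higher and 14.8% lower, and no test between these small groups was made. DNAJC2, BAG1, DNAJC7 and DNAJB12, called at a fold change of at least 1.5, held none of these letters in their windows.

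**Figure D2:**
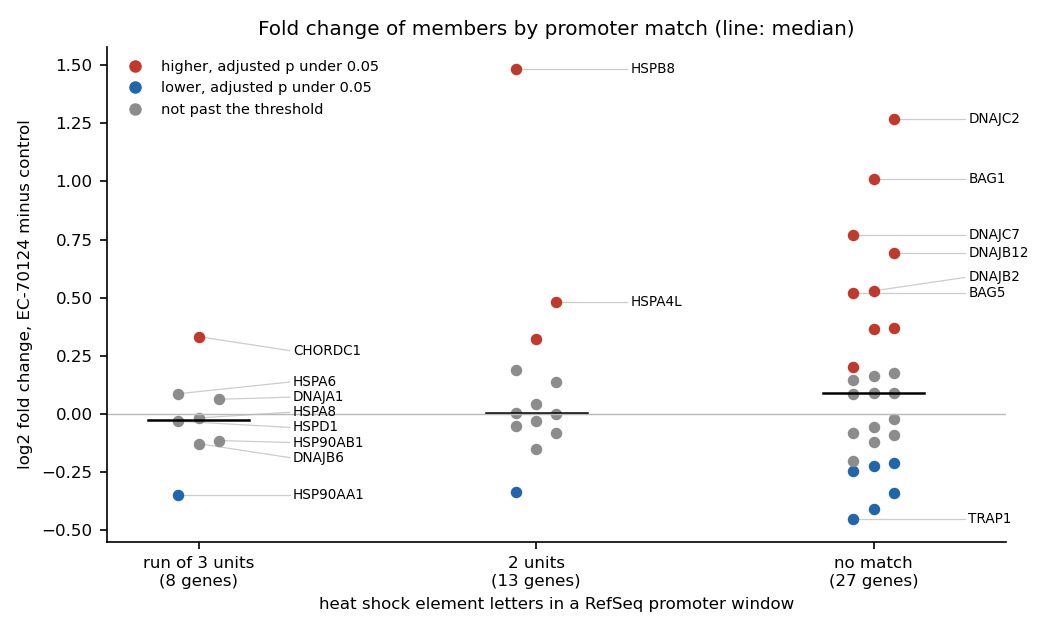
Log2 fold change (EC-70124 minus control, y axis) of the measured members, split by the heat shock element letters in their RefSeq promoter windows. Each point is 1 gene and the line is the median: -0.02 for the 8 genes with a run of 3 units, 0.00 for 13 with 2 units and 0.09 for 27 with no match.

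In the HSP70 and HSP110 family, 1 of 9 measured genes was higher and 2 were lower (33.3% called, beside 34.5% of all genes). HSPA8, the constitutive HSP70 of the cytosol, read 16742, 16546 and 18007 with EC-70124 and 17088, 17451 and 17339 in control cells. EC-70124 replicate 3 lay above every control array and the other 2 below, so that the groups overlapped (log2 fold change -0.02, SE 0.06, adjusted p = 0.851). HSPA4L, an HSP110 type nucleotide exchange factor, read 4097, 4154 and 3277 with EC-70124 and 2679, 2806 and 2717 in control cells. All EC-70124 arrays were above all control arrays, replicate 3 least so, and the log2 fold change was 0.48 (SE 0.09, adjusted p = 0.0045). Its relatives HSPH1 (0.08, adjusted p = 0.309) and HSPA4 (-0.06, adjusted p = 0.544) did not pass. The lower calls were HSPA12A, a distant member of the family, with a log2 fold change of -0.21 (SE 0.05, adjusted p = 0.0167), and HSPA2, an HSP70 best known from the testis, with -0.25 (SE 0.07, adjusted p = 0.0321). HSPA2 read 682, 701 and 648 with EC-70124 and 777, 881 and 754 in control cells, without overlap. Its call was lost when any 1 array other than control replicate 3 was left out, with an adjusted p between 0.0526 and 0.0962. That of HSPA12A was lost without EC-70124 replicate 1, EC-70124 replicate 2 or control replicate 1, with an adjusted p between 0.0564 and 0.0733.

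HSP90 and its co-chaperones held 1 higher and 2 lower calls among 5 measured genes (60% called, beside 34.5% of all genes). HSP90AA1, the heat-inducible cytosolic HSP90, read 8787, 8644 and 9337 with EC-70124 and 11091, 11532 and 11403 in control cells. Every EC-70124 array was below every control array, and the log2 fold change was -0.35 (SE 0.06, adjusted p = 0.00175). HSP90AB1, the constitutive isoform, read 12773, 12321 and 13139.8 with EC-70124 and 13543, 14002 and 13834 in control cells. The EC-70124 arrays were again the lower ones without overlap, but the log2 fold change of -0.11 (SE 0.05) did not pass (adjusted p = 0.145, and 0.0132 under limma's trend and robust settings). Whether the 2 isoforms differed in their change was not tested. STIP1, the HOP protein that hands clients over between HSP70 and HSP90, read 4538, 4584 and 5067 with EC-70124 and 5947, 6087 and 5835 in control cells. These groups did not overlap, and the log2 fold change was -0.33 (SE 0.06, adjusted p = 0.00364).

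CHORDC1, a co-chaperone of HSP90 also known as morgana, went the other way. It read 4386, 4303 and 4232 with EC-70124 and 3136, 3545 and 3601 in control cells. All EC-70124 arrays were above the control arrays, with a log2 fold change of 0.33 (SE 0.07, adjusted p = 0.00554). CDC37, which brings kinases to HSP90, had a log2 fold change of 0.17 without overlap of its groups, and did not pass (adjusted p = 0.0788, and 0.0243 under trend and robust settings).

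The small heat shock proteins hold unfolded protein without using ATP. Among them HSPB8 was the only 1 of 3 measured genes past the threshold (33.3%, beside 34.5% of all genes). HSPB8 read 545, 604 and 1195 with EC-70124 and 239, 279 and 272 in control cells. All EC-70124 arrays were above all control arrays, and replicate 3 stood apart from the other 2. The log2 fold change was 1.48 (SE 0.26, adjusted p = 0.0028), which is a 2.79-fold higher level. Without EC-70124 replicate 3 it was 1.13 (adjusted p = 0.000127), and with the t statistic that does not borrow spread across genes the adjusted p was 0.14. BAG3, which works with HSPB8 in the removal of damaged protein by autophagy, read 3231, 3356 and 3412 with EC-70124 and 3836, 3986 and 3850.1 in control cells. Here the EC-70124 arrays were the lower ones, with no overlap and a log2 fold change of -0.22 (SE 0.05, adjusted p = 0.012). HSPB1 (-0.03, adjusted p = 0.714) and CRYAB (-0.12, adjusted p = 0.393), the crystallin of lens and muscle, did not pass.

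The other BAG genes included 3 that were higher. BAG1, a nucleotide exchange factor of HSP70 that also binds BCL2, read 872, 894 and 893 with EC-70124 and 441, 449.9 and 429.9 in control cells. The arrays of each group lay close together and far from those of the other, at a 2.01-fold higher level (log2 fold change 1.01, SE 0.05, adjusted p = 8.05e-06). BAG5, a member with several BAG domains, read 659, 647 and 763 with EC-70124 and 515, 505 and 423 in control cells. The groups did not overlap (log2 fold change 0.52, SE 0.10, adjusted p = 0.00357). BAG2, which inhibits the ubiquitin ligase CHIP, had a log2 fold change of 0.32 (SE 0.05, adjusted p = 0.00189), and BAG4 one of 0.06 (adjusted p = 0.501). With BAG3, the family had 4 of 5 genes called (80%, beside 34.5% of all genes), and its median log2 fold change was 0.32.

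The 16 J-domain genes counted in the 3 classes had 6 higher (37.5%, beside 19.7% of all genes) and 1 lower call (6.25%, beside 14.8%). Their median log2 fold change was 0.05. DNAJA3, also a J-domain gene, is counted with the mitochondrial genes instead. DNAJC2, a J-domain protein of the ribosome that acts on newly made chains, read 2715, 2753 and 2739 with EC-70124 and 1140.2, 1150.2 and 1122 in control cells. No other member had a smaller adjusted p, at 3.84e-06, and the level was 2.41-fold higher (log2 fold change 1.27, SE 0.05). HSPA14, its HSP70 partner on the ribosome, read 1228, 1274 and 1634 with EC-70124 and 1391, 1378 and 1456 in control cells, with EC-70124 replicate 3 above and the other 2 below all control arrays (log2 fold change -0.04, adjusted p = 0.804). Without EC-70124 replicate 3 its log2 fold change was -0.17 and passed as lower (adjusted p = 0.0448). DNAJC7, which binds both HSP70 and HSP90, read 3630.0, 3646 and 3768 with EC-70124 and 2103, 2161 and 2224 in control cells. All 3 EC-70124 arrays lay well above the control arrays (log2 fold change 0.77, SE 0.05, adjusted p = 2.7e-05).

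DNAJB12 and DNAJB14 sit in the membrane of the endoplasmic reticulum with the J-domain in the cytosol, and both were higher. DNAJB12 read 1774, 1807 and 2054 with EC-70124 and 1178, 1201 and 1104 in control cells. The groups did not overlap, and the log2 fold change was 0.69 (SE 0.07, adjusted p = 0.000192). DNAJB14 had a log2 fold change of 0.37 (SE 0.06, adjusted p = 0.00138), while a probe set it shares with another locus gave 0.13 (adjusted p = 0.371 over all probe sets). DNAJB2, which binds ubiquitin chains and is best known from neurons, read 1012, 923 and 939 with EC-70124 and 679.7, 742 and 578 in control cells. The EC-70124 arrays were all above the control arrays (log2 fold change 0.53, SE 0.09, adjusted p = 0.00291).

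The smallest of the J-domain changes past the threshold was that of DNAJC5, the cysteine string protein of synaptic vesicles, at 0.20 (SE 0.05, adjusted p = 0.0149). It was lost after quantile normalization (adjusted p = 0.0546) and without control replicate 3 (adjusted p = 0.0519). DNAJB5 was the 1 lower call, with 1996, 1999 and 1877 with EC-70124 and 2476, 2451 and 2506 in control cells. Its groups did not overlap (log2 fold change -0.34, SE 0.05, adjusted p = 0.00158). Class A holds the J-domain proteins closest to bacterial DnaJ. DNAJA3 of that class is counted with the mitochondrial genes, where it was higher (log2 fold change 0.36, adjusted p = 0.00259). None of the other 3 class A members passed (0%, beside 34.5% of all genes), with log2 fold changes between -0.12 and 0.06. DNAJA2, the lowest of them (adjusted p = 0.112), passed as lower under 4 settings: quantile normalization, cyclic loess, trend and robust settings, and the unmoderated t statistic (adjusted p between 0.0323 and 0.0494). DNAJB6, which keeps polyglutamine proteins from aggregating, gave -0.13 (adjusted p = 0.207) on the probe set used, and a second probe set gave -0.31 (adjusted p = 0.0231 over all probe sets).

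**Figure D3:**
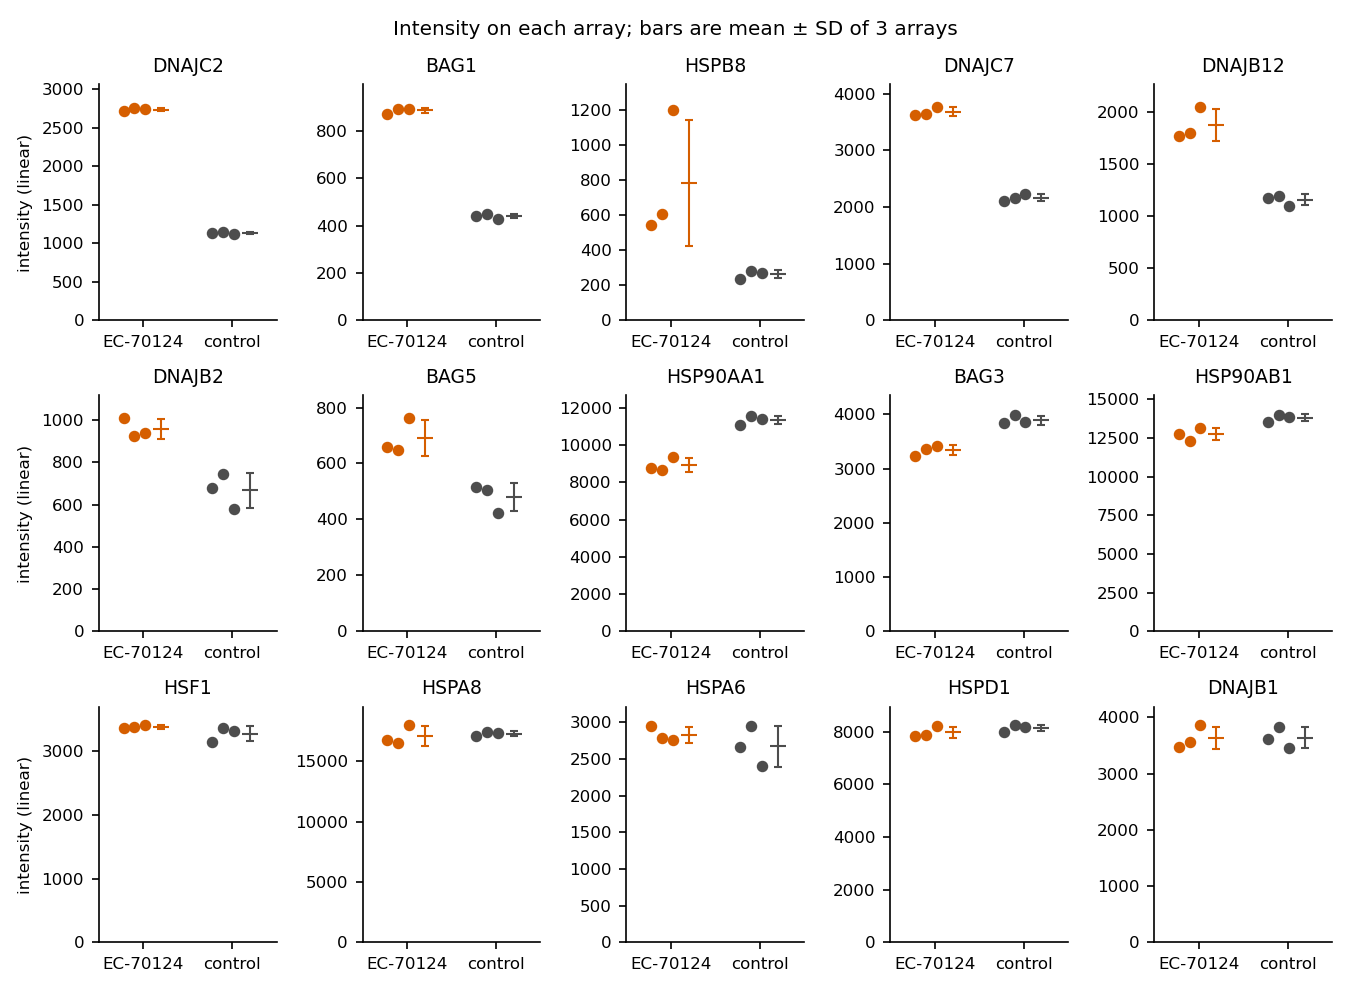
Intensity on a linear scale (y axis, each from 0) of 15 members on each of the 6 arrays, with EC-70124 left of control. Points are arrays and bars the mean ± SD of 3, and the groups lie apart for DNAJC2 and BAG1 but overlap for HSPA8, HSPA6, HSPD1 and DNAJB1.

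Of the 7 mitochondrial chaperones and proteases, 1 was higher and 2 were lower (42.9% called, beside 34.5% of all genes). TRAP1, the HSP90 of the mitochondrion, read 4596, 4715 and 5288 with EC-70124 and 6624, 6654 and 6666 in control cells. The EC-70124 arrays were all lower, replicate 3 least so, and the log2 fold change was -0.45 (SE 0.07, adjusted p = 0.00104). A second probe set of TRAP1 gave -0.05 (adjusted p = 0.635 over all probe sets), and with the median of the 2 probe sets the log2 fold change was -0.25 (adjusted p = 0.00544). HSPE1, the HSP10 lid of the mitochondrial chaperonin, read 3235, 3277 and 3915 with EC-70124 and 4371, 4510.2 and 4912 in control cells. The groups did not overlap, and the log2 fold change was -0.41 (SE 0.09, adjusted p = 0.00734).

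HSPD1, the HSP60 ring that HSPE1 closes, lies head to head with it in the genome. It read 7820.4, 7870.4 and 8204 with EC-70124 and 8002, 8244 and 8172 in control cells. The groups overlapped (log2 fold change -0.03, SE 0.05, adjusted p = 0.695), and whether the 2 genes differed in their change was not tested. HSPA9, the mitochondrial HSP70, had a log2 fold change of 0.19 and no overlap of its groups, and did not pass (adjusted p = 0.06). It passed as higher without the dimmest genes (0.0385), with an offset before log2 (0.0461) and under trend and robust settings (0.0117), all as adjusted p. Its J-domain partner DNAJA3 read 5009.9, 4847 and 4916 with EC-70124 and 3705, 4124 and 3659 in control cells. All EC-70124 arrays were higher (log2 fold change 0.36, SE 0.06, adjusted p = 0.00259). The proteases LONP1 (0.16, adjusted p = 0.132) and CLPP (0.01, adjusted p = 0.88) did not pass.

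None of the 7 TRiC chaperonin subunits among the members passed (0%, beside 34.5% of all genes). Their log2 fold changes lay between -0.15 (CCT4) and 0.09 (CCT5 and CCT7), with a median of -0.05. All 7 lay within 0.25 of 0, as did 12726 of all 18417 genes. A further subunit gene, CCT6A, was counted with the other chaperonin genes below. It read 4372, 4380 and 5131 with EC-70124 and 5332.5, 5291 and 5369 in control cells. Its EC-70124 arrays were all lower, and it did not pass (log2 fold change -0.21, SE 0.07, adjusted p = 0.0607). CCT4 read 6151, 5851 and 6525 with EC-70124 and 6844, 6613 and 7118 in control cells. Its EC-70124 arrays were all lower (adjusted p = 0.101), and it passed as lower under limma's trend and robust settings (adjusted p = 0.0285) and without EC-70124 replicate 3 (adjusted p = 0.0375). CCT3 passed as lower without the same array (adjusted p = 0.0389). In CCT3 that array read 7299 while the other 2 read 6216 and 5933, against 6874, 6745 and 6859.5 in control cells.

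Other chaperone genes of the same pathways were set beside the members. Of 74 listed, 66 were measured, and 16 were higher and 6 lower (33.3%, beside 34.5% of all genes), with a median log2 fold change of 0.03. The count of 16 fell to 9 without EC-70124 replicate 1 or without control replicate 1, and the count of 6 grew to 11 without EC-70124 replicate 3. After quantile or cyclic loess normalization, 10 were higher and 11 lower. Among 14 other J-domain genes, 6 were higher and 1 was lower (50% called). DNAJC28, of no well known function, read 693, 673 and 564 with EC-70124 and 176, 230.1 and 189.9 in control cells (log2 fold change 1.70, SE 0.12, adjusted p = 2.54e-05), and DNAJC9, a histone chaperone, had a log2 fold change of 0.70 (SE 0.08, adjusted p = 0.000337). Both genes kept their groups apart.

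Among 13 other co-chaperones of HSP70 and HSP90, 2 were higher and 2 lower (30.8% called, beside 34.5% of all genes). FKBP4, the FKBP52 immunophilin that works with HSP90 on steroid receptors, read 2936, 2978 and 3249 with EC-70124 and 4368, 4543 and 4226 in control cells. The EC-70124 arrays were all lower (log2 fold change -0.52, SE 0.06, adjusted p = 0.000382), the same direction as HSP90AA1 and STIP1. UNC45A was the other lower call (-0.21, adjusted p = 0.0199). CDC37L1 (0.33, adjusted p = 0.00292) and SUGT1 (0.20, adjusted p = 0.0261) were higher, the direction of CHORDC1. Among 17 other genes listed under mitochondrial protein quality control, 5 were higher and 1 was lower (35.3% called). The list includes LONP2, the Lon protease of the peroxisome, which did not pass. GRPEL2, a nucleotide exchange factor of HSPA9, read 5967, 6519 and 5859 with EC-70124 and 3107, 3412 and 3405 in control cells. No arrays overlapped, and the log2 fold change was 0.89 (SE 0.07, adjusted p = 4.11e-05). Of 15 prefoldin and other chaperonin genes, 3 were higher and 2 lower (33.3% called). The tubulin cofactors TBCC (0.40, adjusted p = 0.00868) and TBCD (-0.43, adjusted p = 0.00765) lay on opposite sides. Of 7 other small heat shock protein and heat shock factor genes none passed.

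The chaperones of the endoplasmic reticulum, many of which a separate stress response controls, are given for their place beside the members. Of 23 measured, 12 were lower and 1 was higher (56.5%, beside 34.5% of all genes), with a median log2 fold change of -0.24, against 0.01 for the cytosolic and mitochondrial members. PDIA4, a protein disulfide isomerase, read 4627, 4444 and 4248 with EC-70124 and 7458, 7639 and 7206 in control cells. All EC-70124 arrays were lower (log2 fold change -0.74, SE 0.06, adjusted p = 4.47e-05). HYOU1, their HSP110 relative, had a log2 fold change of -0.42 (SE 0.09, adjusted p = 0.00636), and ERO1B, an oxidase for disulfide bonds, one of -0.91 (SE 0.10, adjusted p = 0.000282). The other 10 did not pass, among them HSPA5, the HSP70 of this compartment (log2 fold change 0.01, adjusted p = 0.932). The higher call was DNAJC1 (0.27, adjusted p = 0.0112). No test of the difference between the lists was made. The plot of cumulative shares sets the lists against all genes.

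**Figure D4:**
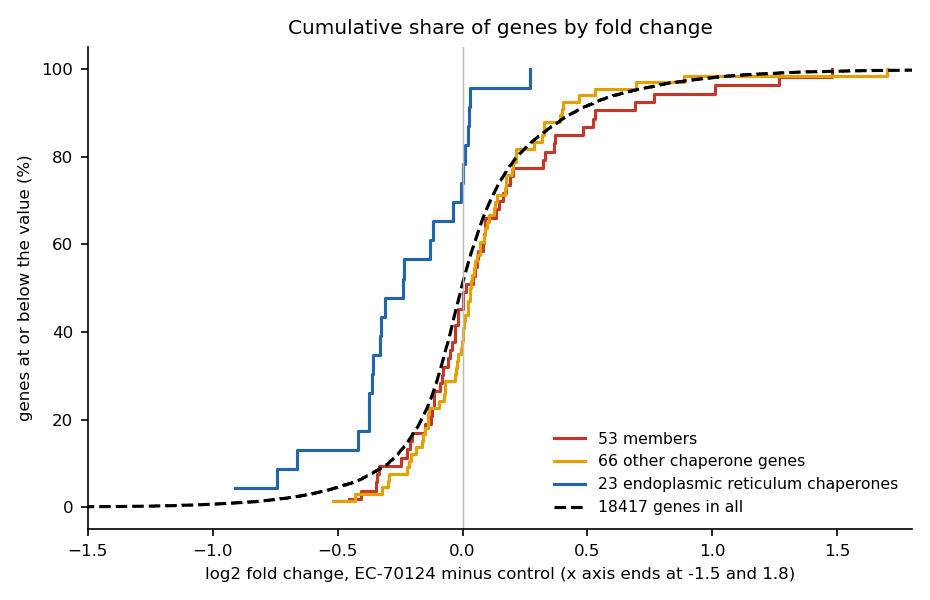
Cumulative share of genes (y axis, percent) at or below each log2 fold change (EC-70124 minus control, x axis), for the 53 members, 66 other chaperone genes, 23 endoplasmic reticulum chaperones and all 18417 genes. The members' line crosses the middle near 0, with a median of 0.01, and the endoplasmic reticulum line lies to its left, with a median of -0.24.

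The calls were repeated under 14 other settings of normalization, filtering, probe choice, test and array left out. Of the 21 called members, 9 kept their call under every one: DNAJC2, BAG1, DNAJC7, DNAJB12, DNAJB14 and BAG2 as higher, and HSP90AA1, DNAJB5 and BAG3 as lower. Of the other 12, 9 lost it only with the t statistic that takes its spread from the single gene. None of the 21 changed its direction under any of them. 10 of the members that had not passed did so under at least 1 setting.

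**Figure D5:**
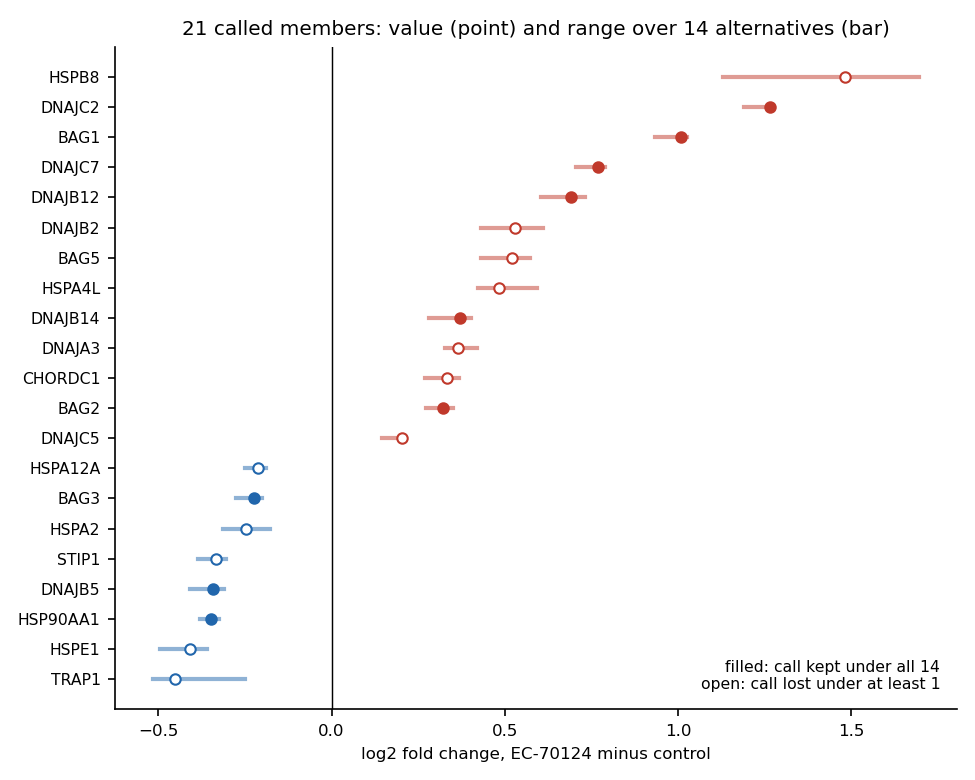
Log2 fold change (EC-70124 minus control, x axis) of the 21 called members, with the value reported as a point and its range over 14 other settings as a bar. Filled points are the 9 genes that kept their call under all 14, and no bar crosses 0.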

How the data were processed

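RNA of 3 EC-70124 and 3 control samples of MDA-MB-231 was hybridized to Affymetrix Human Gene ST arrays. The authors imported the arrays into dChip, applied a rank invariant normalization and computed a model-based expression index, and the deposited values are these intensities on a linear scale for 33252 probe sets. No source used here gives the dChip version, its background step, a scan date or a batch. Array medians were 460.1, 452 and 451 with EC-70124 and 441, 444 and 437 in control cells, and each array held 69 to 98 values that did not exceed 1. No background measure was used, so that dim probe sets cannot be told from background, and the number of arrays limits the precision.

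From there, intensities were floored at 1 and taken as log2. In the platform annotation 19460 probe sets have 1 symbol, 1754 several and 12038 none. The probe set with 1 symbol and the highest mean log2 value stood for each of 18417 genes (769 had more than 1). Symbols were compared with RefSeq through the Entrez identifier, with 0 changed and 31 unmatched. Tests were 2-sided and came from limma 3.58.1 (lmFit, then eBayes; R 4.3.3), with Benjamini-Hochberg adjustment over all genes and a threshold of 0.05. A test of a single gene by exact permutation of 3 against 3 arrays could not go below p = 0.1. Alternatives were quantile and cyclic loess normalization, an offset of 50, a filter that drops the 30% dimmest genes, the median over probe sets, trend and robust settings, an unmoderated t statistic with unequal variances (after the study's ranking statistic), a replicate block, each array left out, and a fold change of at least 1.5.

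Every member with a probe set of its own could be named. Values on every array were required for called members with a log2 fold change of at least 0.5 in size and no overlap, and for HSF1, HSPA1A, HSPA1B, HSPA6, HSPA8, HSP90AA1, HSP90AB1, HSPD1, DNAJB1 and BAG3, and up to 4 genes with the largest called change were eligible in each other list. HSPA5, DNAJC1, CCT6A and LONP2 were named besides these. The members, lists and rules were chosen with earlier results of these data known. HSF2, AHSA1 and HSPB11 had no probe set under these symbols, and HSPA1A and HSPA1B had shared ones. Promoter sequences are RefSeq's, 35116 windows of build GRCh38.p14.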

Additional observations from a re-analysis of the deposited data

How the results depend on the processing

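Across 15 alternatives no named member that had passed changed its direction, and 8 members that had not passed changed sign under at least 1. The unmoderated t statistic with unequal variances called 7 members higher and 5 lower (0 and 2 of the heat-inducible ones), 8 and 3 of the other chaperone genes, and 1962 and 1280 of all genes, where the moderated test gave 3631 and 2722. A fold change of at least 1.5 left 5 members higher and 0 lower (0 and 0 of the heat-inducible ones), 3 and 0 of the other chaperone genes, and 1184 and 596 of all genes. Quantile normalization and cyclic loess each gave 10 higher and 11 lower among the other chaperone genes. Of all calls 57.2% were higher, against 46.9% after quantile normalization, where the members stood at 12 higher and 9 lower (13 and 8 otherwise). With each array left out in turn, 19 to 24 members were called, and the other chaperone genes had 9 to 14 higher and 5 to 11 lower. The replicate numbers showed no clear pairing of the arrays. Deviations of same-numbered arrays correlated at 0.127, -0.02 and 0.136, and those of differently numbered arrays at -0.218 to 0.149. With 3 arrays a group this does not exclude a pairing. A replicate block gave 13 higher and 8 lower members and 3521 and 2662 of all genes. The cause of these changes was not tested. With 3 arrays a group, the median SE over all genes was 0.07 on the log2 scale, so that the members near 0 are not shown to be unchanged.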
